A study of Homo sapiens with 8 samples.

Results

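The response of VHL-deficient RCC cells to low oxygen was read from 4 of the 8 arrays of a study on the altered metabolism of renal cell carcinoma (RCC), namely the 2 arrays of untransfected 786-O cells under hypoxia and the 2 of the same cells under normoxia. 786-O is an established line of human clear cell RCC that lacks a functional VHL protein. The deposited values cover 33297 transcript clusters, each a set of probes read as 1 signal. Of these, 19460 carry 1 gene symbol and stand for 18417 genes, 1754 carry several symbols, and 12083 carry none here. The 4 groups were VHL- cells (untransfected 786-O) under normoxia, VHL- cells under hypoxia, VHL+ cells (786-O with a VHL expression vector) under normoxia, and VHL+ cells under hypoxia. Hypoxia was 1% O2, and all groups were held for 24 h. Every group has 2 replicates that the labels call biological, without naming separate cultures or days, so a p-value measures only the spread between these samples. The VHL+ cells also differ from the VHL- cells by transfection and selection, which cannot be told apart from VHL itself, and 1 line was used throughout.

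VHL is the part of a ubiquitin ligase that recognizes the hydroxylated HIFα subunits and marks them for degradation. Prolyl hydroxylases need oxygen for that hydroxylation, so that both low oxygen and loss of VHL stabilize HIFα. In 786-O cells HIF2α is the subunit in charge, since these cells make no functional HIF1α, and HIF target genes are already active under normoxia. A hypoxic cell can also respond through the integrated stress response, in which phosphorylation of the translation factor eIF2α lowers protein synthesis in general and raises translation of the transcription factor ATF4. ATF4 binds an element shared with C/EBP proteins, and its targets make and import amino acids and charge tRNAs. The question was what hypoxia adds to the expression pattern of cells in which VHL is already missing.

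The label of the cells was set against marker genes. PAX8 and PAX2, transcription factors of the renal lineage, LHX1, CDH6, KRT8, KRT18 and VIM were all above the array median on all 4 arrays, and none of these 7 passed the test. Of 13 markers of other cell types, 10 were below the array median on all 4 arrays, among them PTPRC of leukocytes, PECAM1 and CDH5 of endothelium and DCN of fibroblasts. CD68, which many cultured cells also express, lay between 10.17 and 10.56 on the log2 scale. LUM, a matrix proteoglycan, ranged from 6.03 to 8.65 and was high on both replicate 2 arrays. The mean log2 signal of the 13 markers was 6.50 and 6.67 under normoxia and 6.30 and 6.59 under hypoxia, so the groups overlapped. VHL, the gene that defines the groups, gave 8.24 and 8.43 under normoxia and 8.23 and 8.51 under hypoxia in VHL- cells.

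The array medians were 6.789 and 6.742 for VHL- cells under normoxia and 6.6 and 6.703 under hypoxia, and hypoxia replicate 1 had the lowest median of the 8 arrays. The median log2 fold change of all 18417 genes was accordingly -0.11 in VHL- cells, with -0.18 between the arrays numbered 1 and -0.03 between those numbered 2. After quantile normalization it was 0.01. Both hypoxia values of a gene lay below both normoxia values in 42.7% of all genes and above both in 3.02%. For this reason the medians of gene lists are given below relative to the median of all genes, while the fold changes of single genes are those of the deposited scale.

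In VHL- cells 22 transcript clusters passed the test for hypoxia. In limma, at a p adjusted over all 33297 clusters under 0.05, 7 transcript clusters rose (0.021% of those tested) and 15 fell (0.045%). They hold 6 genes that rose (0.0326% of the genes) and 8 that fell (0.0434%), while the other 8 clusters have no symbol here. The genes that rose were NUPR1, CTH, ASNS, PSAT1, PCK2 and NDRG1, of which CTH, ASNS, PSAT1 and PCK2 encode enzymes of amino acid and intermediary metabolism. Those that fell were TNFRSF11B, ADAMTS1, FIGN and the histone genes H2BC14, H3C12, H2BC3, H4C4 and H1-3. At the unadjusted p under 0.005 that the methods of the study used, 312 clusters passed, 39 higher and 273 lower, where 166 are expected by chance. This split depended on the normalization. After quantile normalization 126 were higher and 123 lower, and the share of higher ones went from 12.5% to 50.6%. That step gives all arrays the same distribution, so a more even split can follow from the step itself. Whether the lower scale under hypoxia was technical or a broad fall was not tested.

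Refits under the alternatives gave 223 values for these 14 genes, all in the same direction. This was largely fixed beforehand, since refits that kept all 4 arrays of VHL- cells on the deposited scale repeat the same fold change. The groups of these genes did not overlap, so leaving out 1 array could not reverse a sign either. None of the 14 passed after quantile normalization (adjusted p between 0.228 and 0.667), after median centring of the arrays (0.0634 to 0.941), with the 4 arrays of VHL- cells fitted alone (0.353 to 0.622) or without replicate 1 or 2 of the VHL+ hypoxia group, whose spread enters the fit (0.538 to 0.671). None of the 13 that remained after leaving out dim clusters passed (0.092 to 0.346). ASNS, NDRG1, NUPR1 and TNFRSF11B alone passed when only clusters with 1 symbol were tested. ADAMTS1, FIGN and PCK2 did not pass without VHL- normoxia replicate 1, and ADAMTS1, H1-3 and H4C4 did not without VHL- normoxia replicate 2. Other fits called more clusters than the 22: trend with robust estimation called 220, and leaving out 1 array called up to 282.

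**Figure D1:**
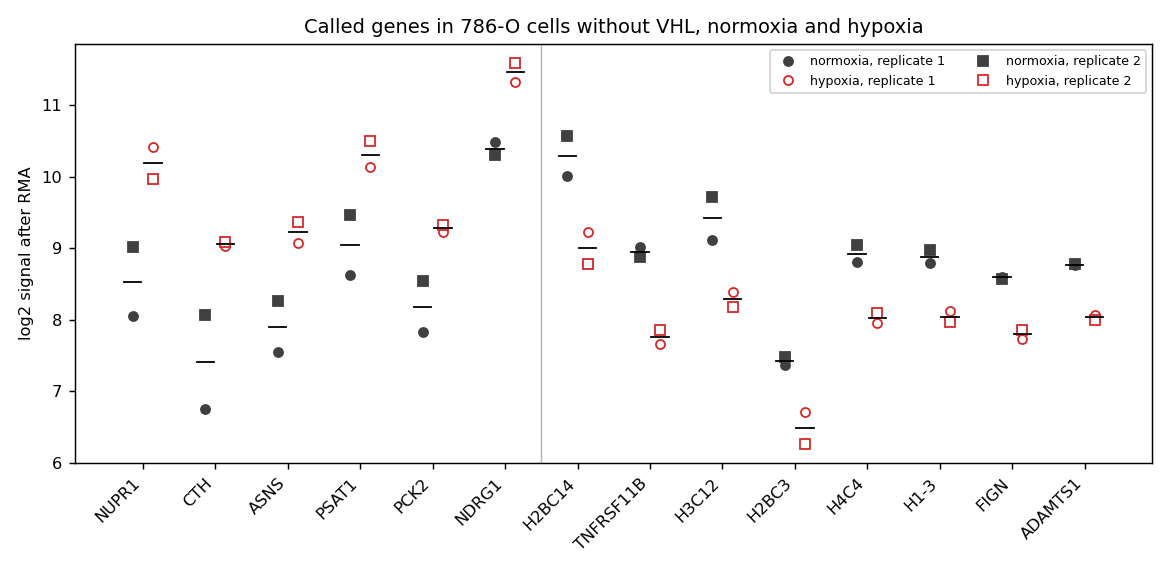
The log2 signal after RMA (y axis) of the 6 genes that rose and the 8 that fell is plotted on each of the 4 arrays of VHL- cells, with filled symbols for normoxia, open symbols for hypoxia and a line at each group's mean. The groups do not overlap for any of the 14 genes, which was a condition for naming them and adds nothing to the test. The normoxia replicates lie furthest apart for CTH, at 6.75 and 8.07.

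Among the genes that rose, NUPR1 encodes a small stress-induced chromatin protein. Its log2 signal was 8.05 and 9.01 under normoxia and 10.41 and 9.97 under hypoxia. Both hypoxia values were above both normoxia values, and the gene rose 3.15-fold (log2 fold change 1.66, SE 0.23, adjusted p = 0.00571). CTH, cystathionine gamma-lyase, makes cysteine from cystathionine. It had log2 signals of 6.75 and 8.07 under normoxia and of 9.03 and 9.09 under hypoxia. It rose by 1.65 on the log2 scale (SE 0.26, adjusted p = 0.0181), or 3.14-fold, and the value of 6.75 lies below its array's median.

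ASNS encodes asparagine synthetase, an ATF4 target that is often used as its readout. Its log2 signal was 7.55 and 8.26 under normoxia and 9.07 and 9.37 under hypoxia. It rose by 1.31 (SE 0.18, adjusted p = 0.00571), or 2.48-fold, on the log2 scale of the deposited values. PSAT1, phosphoserine aminotransferase, catalyses a step of serine synthesis. Its values were 8.63 and 9.47 under normoxia and 10.13 and 10.50 under hypoxia. The log2 fold change was 1.26 (SE 0.20, adjusted p = 0.0213), or 2.4-fold. PCK2, the mitochondrial form of phosphoenolpyruvate carboxykinase, had values of 7.83 and 8.54 under normoxia and of 9.22 and 9.33 under hypoxia (log2 fold change 1.09, SE 0.19, adjusted p = 0.0335). In all these genes except NDRG1, normoxia replicate 1 was lower than normoxia replicate 2.

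NDRG1, a growth-related gene that HIF induces, was the only HIF target among the 14. It had log2 signals of 10.48 and 10.30 under normoxia and of 11.33 and 11.59 under hypoxia. The log2 fold change was 1.07 (SE 0.14, adjusted p = 0.00489), or 2.1-fold. In VHL+ cells the same gene had 8.91 and 8.93 under normoxia and 11.28 and 11.12 under hypoxia (log2 fold change 2.28, SE 0.14, adjusted p = 1.48e-07). Under normoxia its level was thus higher in the cells without VHL, and under hypoxia the levels of both cell types lay close together.

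Among the genes that fell, TNFRSF11B encodes osteoprotegerin, the secreted decoy receptor of RANKL. Its log2 signal was 9.02 and 8.87 under normoxia and 7.66 and 7.85 under hypoxia. It fell by 1.19 on the log2 scale (SE 0.17, adjusted p = 0.00571), which is 2.27-fold lower. ADAMTS1, a secreted metalloprotease with thrombospondin motifs, had 8.77 and 8.78 under normoxia and 8.06 and 8.0 under hypoxia (log2 fold change -0.75, SE 0.13, adjusted p = 0.0446). FIGN, a microtubule-severing ATPase, had 8.60 and 8.57 under normoxia and 7.73 and 7.86 under hypoxia. Its log2 fold change was -0.79 (SE 0.14, adjusted p = 0.0321), and -0.65 in VHL+ cells. In all 3 genes the replicates of a group were close, and the groups did not overlap, which the naming of called genes required.

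The genes next in line did not pass the test and are given as values. DDIT3, which encodes the stress transcription factor CHOP, had log2 signals of 7.43 and 7.72 under normoxia and of 8.40 and 8.94 under hypoxia (log2 fold change 1.10, SE 0.20, adjusted p = 0.053). MKNK2, a kinase of the translation factor eIF4E, had 8.83 and 8.92 against 9.62 and 9.72 (adjusted p = 0.0891). RBCK1, SLC1A4, STC2 and ULBP1 had log2 fold changes of 0.65, 0.78, 0.74 and 0.99 with adjusted p-values of 0.159, 0.167, 0.167 and 0.18. TFRC, the transferrin receptor that imports iron, had the largest fold among named genes that did not pass. It had 10.95 and 10.60 under normoxia and 8.97 and 9.24 under hypoxia (log2 fold change -1.67, SE 0.32, adjusted p = 0.0765). TFRC is listed as a HIF target that hypoxia raises in other cells, and here both hypoxia values were below both normoxia values. TLE4, a corepressor, SNORD81, a small nucleolar RNA, and SUMO3, a ubiquitin-like modifier, had log2 fold changes of -0.77, -0.70 and -0.69 with adjusted p-values of 0.0765, 0.0765 and 0.107.

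Of the 40 gene lists described, 6 held a gene that passed the test, and 23 held neither such a gene nor one at an unadjusted p under 0.005. Over all genes, 0.19% were higher at that looser threshold and 0.478% lower. The medians of 34 lists lay within 0.15 of the median of all genes on the log2 scale. The largest medians belonged to the aminoacyl-tRNA synthetases and to the ATF4 stress response on the higher side, and to the replication-dependent histones on the lower side.

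**Figure D2:**
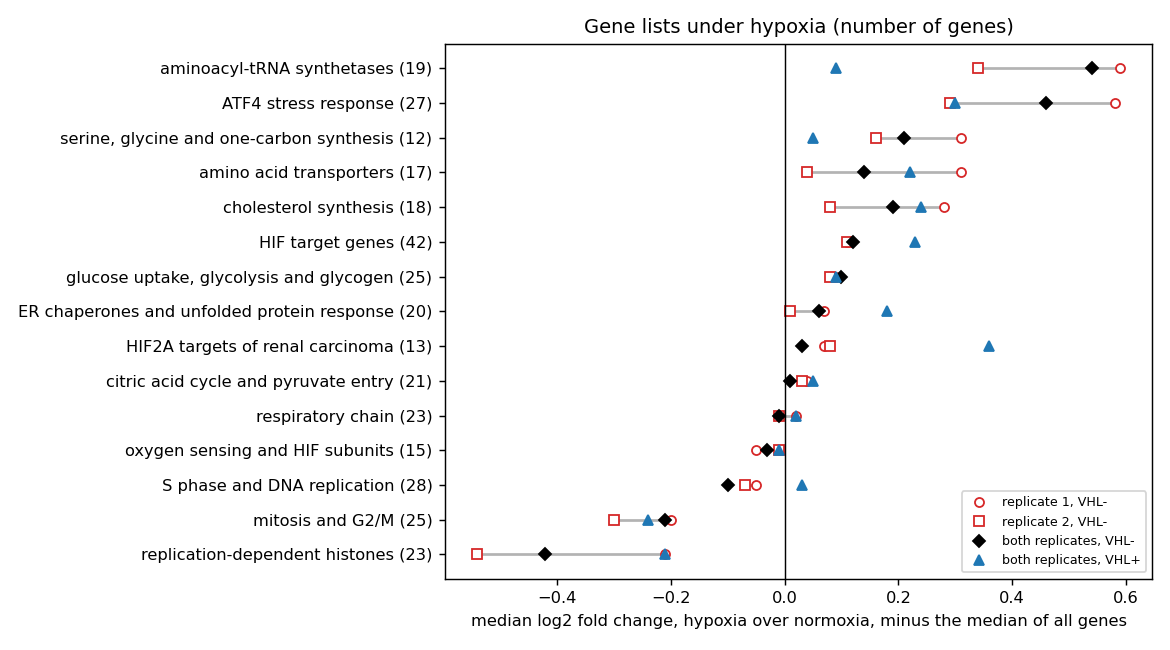
For 15 gene lists, the x axis gives the median log2 fold change, hypoxia over normoxia, minus the median of all genes; diamonds are VHL- cells, open symbols the VHL- arrays of each replicate number, and triangles VHL+ cells. The synthetases and the ATF4 list lie at 0.54 and 0.46 in VHL- cells and the histones at -0.42, while HIF2A targets lie at 0.03 in VHL- and 0.36 in VHL+ cells.

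The ATF4 stress response list has 27 measured genes. NUPR1, CTH and ASNS rose, none fell, and 11 were higher at an unadjusted p under 0.005 while none was lower. Both hypoxia values were above both normoxia values in 16 genes, against 3.02% of all genes. They were below in 1, against 42.7% of all genes. The list's median was 0.46 above that of all genes and 0.45 after quantile normalization, where 7 members were at the looser threshold. Among the sensors and brakes of the response, DDIT4, an inhibitor of mTORC1, had log2 signals of 9.01 and 9.68 under normoxia and of 10.14 and 10.81 under hypoxia (log2 fold change 1.13, SE 0.27, adjusted p = 0.22). TRIB3, a pseudokinase that restrains ATF4, had 8.35 and 8.94 against 9.09 and 9.58. SESN2, a leucine sensor, had 7.29 and 8.31 against 8.40 and 8.67. CHAC1, which degrades glutathione, had 7.24 and 8.40 against 8.59 and 8.82 (log2 fold change 0.89, SE 0.24, adjusted p = 0.35). In these genes the groups did not overlap, though normoxia replicate 2 came close to the lower hypoxia value for SESN2, CHAC1 and TRIB3.

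The mRNA of ATF4 itself, whose control is mostly translational, had 9.84 and 10.72 under normoxia and 10.14 and 10.62 under hypoxia (log2 fold change 0.10, SE 0.22, adjusted p = 0.856). Its groups overlapped. ATF5, a related factor, had a negative log2 fold change of -0.40 (adjusted p = 0.789, SE 0.16). The normoxia replicates of this list stood apart: 23 of the 27 genes were higher in normoxia replicate 2 than in normoxia replicate 1, by a median of 0.42 on the log2 scale. Without normoxia replicate 1 the list's median was 0.28 above that of all genes with 6 members at the looser threshold, and without normoxia replicate 2 it was 0.80. Counts of members under the alternatives were added after the data had been seen. In VHL+ cells, where 1.63% of genes were higher at the looser threshold and 0.109% lower, 8 members were higher and none lower, with a median of 0.30.

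Aminoacyl-tRNA synthetases join amino acids to their tRNAs, and those of the cytosol include known ATF4 targets. None of the 19 measured genes passed the test, 5 were higher at the looser threshold and none lower, after quantile normalization as before it. The median was 0.54 above that of all genes in VHL- cells and 0.09 in VHL+ cells, where no member was at the looser threshold. The difference between the medians was not tested. AARS1, the alanine enzyme, had log2 signals of 9.95 and 10.84 under normoxia and of 11.06 and 11.65 under hypoxia (log2 fold change 0.96, SE 0.22, adjusted p = 0.18). SARS1, the serine enzyme, had 9.61 and 10.00 against 10.33 and 10.53. EPRS1, the bifunctional glutamate and proline enzyme, had 9.78 and 9.83 against 10.24 and 10.43. CARS1 and GARS1, the cysteine and glycine enzymes, had log2 fold changes of 0.64 and 0.56.

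The synthetases ranged widely around the median of all genes, above which 14 of the 19 lay. Both hypoxia values were above both normoxia values in 11 genes, against 3.02% of all genes, and below them in 4, against 42.7% of all genes. The histidine enzyme HARS1 had 10.16 and 9.86 under normoxia and 9.85 and 9.57 under hypoxia (log2 fold change -0.29, SE 0.15, adjusted p = 0.806). The glutamine enzyme QARS1 had a log2 fold change of -0.28 and the arginine enzyme RARS1 of -0.27. Of the 19 genes, 17 were higher in normoxia replicate 2 than in normoxia replicate 1, by a median of 0.26. No synthetase was at the looser threshold without normoxia replicate 1, with a median of 0.36, and up to 9 were without another array.

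**Figure D3:**
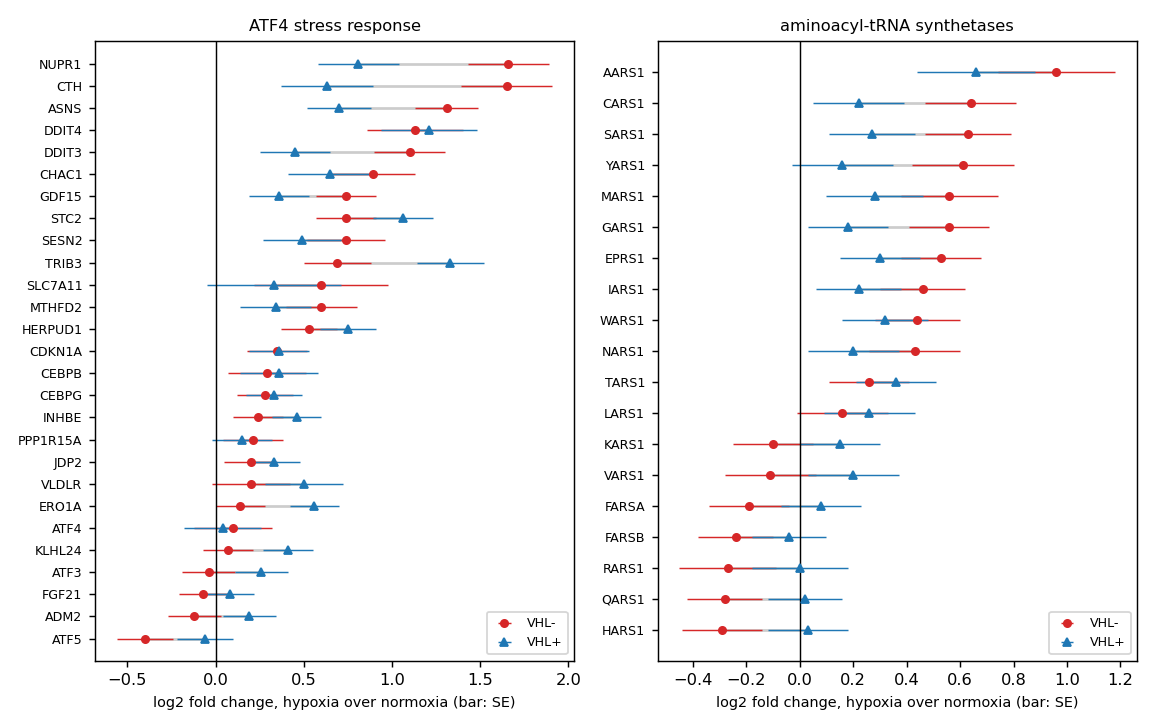
The x axes give the log2 fold change, hypoxia over normoxia, of each gene of the ATF4 list (left) and each synthetase (right), in red for VHL- and blue for VHL+ cells, with bars for the SE. The synthetases split in VHL- cells, from 0.96 for AARS1 to -0.29 for HARS1.

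Stretches of the promoters of these genes are shown because several hold a sequence that ATF4 is known to bind. This ATF4-CEBP composite element was searched as TGATGNAAN, on both strands, in RefSeq promoters of GRCh38.p14 that run from 250 bases before to 50 after a start site. It was present in 3.61% of all 35116 promoters and in 4.45% of 27305 genes. Of the 16 synthetase genes with a promoter in the table, 7 held it (AARS1, CARS1, GARS1, IARS1, MARS1, NARS1 and TARS1). All 7 had a log2 fold change above 0, between 0.26 and 0.96 with a median of 0.56. Of the 9 without it, 3 had a log2 fold change above 0 (EPRS1, SARS1 and WARS1) and 6 below 0, with a median of -0.19. In the ATF4 list 7 of 24 genes held it, with a median log2 fold change of 0.28 against 0.35 for the 17 without it, so the split of the synthetases was not seen there. These are descriptions of matches, chosen after the values were seen and without a test. Capitals mark the element, and each stretch is written 5′ to 3′ on the strand of the gene; where the element lies on the other strand it appears as its reverse complement.

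ASNS: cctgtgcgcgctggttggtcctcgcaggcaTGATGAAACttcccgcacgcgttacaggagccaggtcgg
CHAC1: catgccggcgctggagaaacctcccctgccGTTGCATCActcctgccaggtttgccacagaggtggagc
HERPUD1: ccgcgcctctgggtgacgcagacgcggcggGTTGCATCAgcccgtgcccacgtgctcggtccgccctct
AARS1: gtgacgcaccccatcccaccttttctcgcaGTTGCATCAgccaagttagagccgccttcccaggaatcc
GARS1: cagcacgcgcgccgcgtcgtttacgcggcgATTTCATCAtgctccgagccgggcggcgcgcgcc

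The ASNS stretch is chr7:97872438-97872506 on the minus strand, with the element 59 bases before the start site, and ASNS was the only one of the 4 called rises with a promoter in the table that held it. The CHAC1 stretch is chr15:40953231-40953299 on the plus strand, with the element 201 bases before the start site. The HERPUD1 stretch is chr16:56931935-56932003 on the plus strand, 168 bases before it, and the gene, which acts in the degradation of proteins from the endoplasmic reticulum, had log2 signals of 8.94 and 9.48 under normoxia and of 9.70 and 9.77 under hypoxia. The AARS1 stretch is chr16:70289656-70289724 on the minus strand, 179 bases before the start site. The GARS1 stretch is chr7:30594814-30594877 on the plus strand, with the element 25 bases from the start site. This stretch holds fewer than the 30 flanking bases after the element, because the window ends 50 bases after the start site. The GARS1 element thus lies after the start site. CHAC1, HERPUD1 and AARS1 share the same 9 letters, GTTGCATCA.

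Other genes of amino acid supply were mixed. Of 12 genes of serine, glycine and one-carbon synthesis PSAT1 rose, no other was at the looser threshold, and the median was 0.21 above that of all genes. With 1 array left out, 1 to 5 members were higher and the median ran from 0.15 to 0.32. PSPH, the last enzyme of serine synthesis, had log2 signals of 8.29 and 9.60 under normoxia and of 9.64 and 9.71 under hypoxia, where normoxia replicate 2 lay just below the hypoxia values (log2 fold change 0.73, SE 0.26, adjusted p = 0.677). MTHFD2 and SHMT2, mitochondrial enzymes of folate metabolism, had log2 fold changes of 0.60 and 0.50. PHGDH, the first enzyme of serine synthesis, had one of -0.12 and signals of 6.32 to 6.48, below the array medians. Of 17 amino acid transporters none passed, 3 were higher at the looser threshold and SLC7A6 was lower. No transporter was higher at that threshold without normoxia replicate 1, up to 5 were without another array, and the median relative to all genes, 0.14, ran from 0.08 to 0.33. SLC7A5, the large carrier of leucine and other neutral amino acids, had 9.35 and 10.80 under normoxia and 10.90 and 11.48 under hypoxia (log2 fold change 1.11, SE 0.33, adjusted p = 0.428). SLC1A4, a carrier of alanine, serine and cysteine, had 8.40 and 8.89 against 9.31 and 9.54. SLC43A1, another carrier of neutral amino acids, had 7.39 and 7.30 against 7.85 and 7.93. SLC7A11, the cystine carrier, had 7.96 and 9.85 against 9.50 and 9.52, so its groups overlapped.

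Among 15 genes of oxygen sensing and HIF subunits none passed and none was at the looser threshold, with a median of -0.03 relative to all genes, which was 0.11 without hypoxia replicate 1. EPAS1, which encodes HIF2α, had log2 signals of 10.11 and 10.31 under normoxia and of 9.48 and 10.04 under hypoxia. Its log2 fold change was -0.45 (SE 0.18, 95% interval -0.82 to -0.08, adjusted p = 0.779). HIF1A had 10.70 and 10.69 against 10.39 and 10.40, a log2 fold change of -0.30 (95% interval -0.59 to -0.01, adjusted p = 0.806). The intervals are those of the deposited scale and are not adjusted for the number of genes tested. EGLN3, an oxygen-sensing prolyl hydroxylase and itself a HIF target, had 8.38 and 8.30 against 7.89 and 8.34, a log2 fold change of -0.22 (95% interval -0.54 to 0.09). VHL had a log2 fold change of 0.03 (95% interval -0.26 to 0.33).

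Of 42 HIF target genes NDRG1 rose and none fell. Both hypoxia values were above both normoxia values in 9 of the 42, against 3.02% of all genes. They were below in 7, against 42.7% of all genes, and the groups overlapped in 26. DDIT4, NDRG1, STC2 and SLC2A1 were higher at the looser threshold (0.19% of all genes were) and TFRC was lower (0.478% were). With 1 array left out, 2 to 5 members were higher and 1 to 4 lower. The median was 0.12 above that of all genes, and 0.07 after quantile normalization. In VHL+ cells 14 of the 42 were higher at the looser threshold and none lower, against 1.63% and 0.109% of all genes. SLC2A1, the glucose transporter GLUT1, had log2 signals of 12.21 and 12.06 under normoxia and of 12.63 and 12.71 under hypoxia (log2 fold change 0.54, SE 0.16, adjusted p = 0.422). In VHL+ cells it had 10.81 and 11.30 under normoxia and 12.61 and 12.47 under hypoxia (log2 fold change 1.49, SE 0.16, adjusted p = 0.000351). The hypoxic levels of both cell types lay within 12.47 to 12.71, and the normoxic level was higher without VHL. STC2, a secreted glycoprotein, had 7.96 and 8.53 against 9.10 and 8.86 in VHL- cells. VEGFA, the angiogenic factor, had 10.95 and 10.43 against 11.11 and 10.73, so its groups overlapped.

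Of 25 genes of glucose uptake, glycolysis and glycogen only SLC2A1 was at the looser threshold. The intervals of the fold changes are those of the reported fit on the deposited scale, where the median of all genes was -0.11. They do not bound the values under another normalization. ALDOA, an aldolase, had a log2 fold change of 0.01 (95% interval -0.28 to 0.30), LDHA, which makes lactate, of 0.02 (-0.27 to 0.32), PKM, the pyruvate kinase, of 0.01 (-0.28 to 0.29) and TPI1, triosephosphate isomerase, of -0.04 (-0.32 to 0.25). The interval was wider for ENO2, an enolase, at 0.05 (-0.50 to 0.61). HK2, a hexokinase, had 0.25 (-0.07 to 0.57) and PDK1, which restrains pyruvate dehydrogenase, -0.10 (-0.49 to 0.29). A p that misses the threshold does not show that these genes were unaffected. No gene of the citric acid cycle (21) or the respiratory chain (23) was at the looser threshold, and their medians were 0.01 and -0.01 relative to all genes. SDHA, a subunit of succinate dehydrogenase, had a log2 fold change of 0.01 (-0.32 to 0.35). ACTB, a reference gene, had 0.06 (-0.23 to 0.35).

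Whether hypoxia acted differently in VHL- and VHL+ cells was tested as the difference of both fold changes. Of all clusters 2 passed at an adjusted p under 0.05 (0.00601%), and neither has a symbol here. At an unadjusted p under 0.005 the difference held 105 genes (0.57%), of which 104 had the smaller value in VHL- cells, and the median difference of all genes was -0.22. After quantile normalization 23 genes had the smaller and 13 the larger value in VHL- cells. Among HIF targets 7 were at this threshold, all with the smaller value in VHL- cells (NDRG1, SLC2A1, PLIN2, P4HA2, ADM, HK2 and CA12), and 2 after quantile normalization. For NDRG1 the difference was -1.21 (95% interval -1.63 to -0.78, adjusted p = 0.0995), and its unadjusted p of 1.14e-05 became 0.000431 after quantile normalization. For SLC2A1 it was -0.95 (-1.41 to -0.48, adjusted p = 0.466). ADM, which encodes the vasodilator adrenomedullin, had 9.30 and 9.56 under normoxia and 9.49 and 9.96 under hypoxia in VHL- cells. In VHL+ cells it had 7.51 and 8.08 under normoxia and 9.03 and 8.95 under hypoxia. CA12, a carbonic anhydrase of the cell surface, had 10.40 and 10.12 against 10.76 and 10.31 in VHL- cells and 9.01 and 9.51 against 10.55 and 10.23 in VHL+ cells. For the 13 HIF2A targets of RCC the difference was at the looser threshold in 4, the fourth being CCND1, the cyclin D1 gene, after NDRG1, SLC2A1 and PLIN2.

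**Figure D4:**
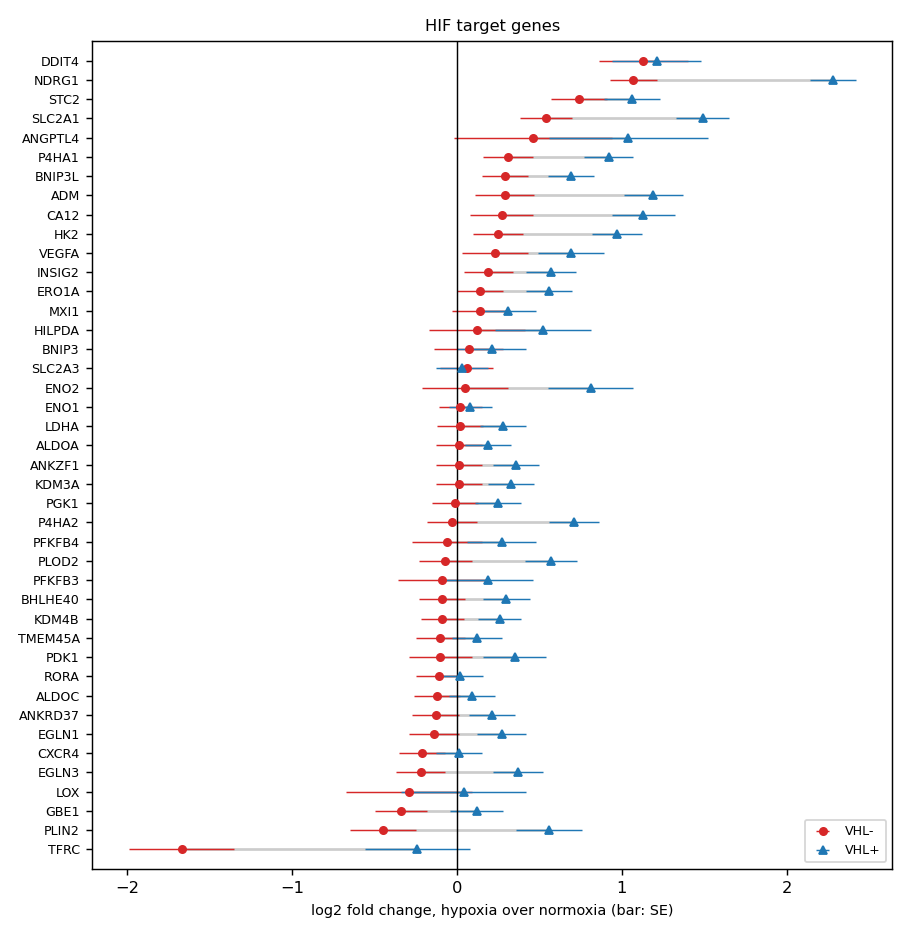
The x axis gives the log2 fold change, hypoxia over normoxia, of each of 42 HIF target genes, in red for VHL- and blue for VHL+ cells, with bars for the SE. NDRG1 is at 1.07 in VHL- and 2.28 in VHL+ cells and SLC2A1 at 0.54 and 1.49, while TFRC has the lowest value in VHL- cells, at -1.67.

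The called rises other than NDRG1 showed the other order of values, but none of their differences passed. These 5 genes were named because they passed in VHL- cells, which by itself favours larger values there than in VHL+ cells. The log2 fold change in VHL+ cells was 0.81 for NUPR1, 0.63 for CTH, 0.70 for ASNS, 0.39 for PSAT1 and 0.74 for PCK2, each below the value in VHL- cells. The unadjusted p of the difference was 0.0171, 0.0116, 0.0307, 0.00683 and 0.212 in the same order, and the adjusted p was 0.651 for each of the 5. No member of the ATF4 list or of the synthetases was at an unadjusted p under 0.005 for this difference on the deposited scale. After quantile normalization the synthetases EPRS1 and SARS1 were, both with the larger value in VHL- cells, and still no member of the ATF4 list. TRIB3 had the larger fold change in VHL+ cells, at 1.33 against 0.69, and DDIT4 had 1.21 against 1.13.

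Replication-dependent histone genes, which are transcribed in S phase to package new DNA, were among the genes that fell. In RNA of a whole culture, fewer cycling cells and less of this RNA per cell cannot be told apart. H2BC14, H3C12, H2BC3, H4C4 and H1-3 fell, of which the last 3 are in the list of 23 measured histone genes described here. Genes of the same core histone type are near-identical copies in clusters of the genome. Probes of one can therefore take up signal of another of that type, and such copies are not independent. H2BC14 had log2 signals of 10.01 and 10.57 under normoxia and of 9.22 and 8.78 under hypoxia (log2 fold change -1.29, SE 0.22, adjusted p = 0.033). H3C12 had 9.11 and 9.72 against 8.39 and 8.18 (log2 fold change -1.13, SE 0.18, adjusted p = 0.0181). Both genes encode core histones, H2B and H3. H2BC3, another H2B gene, had 7.36 and 7.48 against 6.70 and 6.26 (-0.94, SE 0.16, adjusted p = 0.0321), where the last value lies below its array's median. H4C4, which encodes H4, had 8.80 and 9.05 against 7.95 and 8.09 (-0.90, SE 0.16, adjusted p = 0.0474). H1-3, a linker histone, had 8.79 and 8.97 against 8.12 and 7.97 (-0.83, SE 0.14, adjusted p = 0.0315). In all 5 genes the groups were apart, which the naming of called genes required.

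Over the list, 9 of 23 genes were lower at an unadjusted p under 0.005, against 0.478% of all genes, and none was higher. After quantile normalization 3 were lower. Both hypoxia values were below both normoxia values in 18 genes, against 42.7% of all genes. The median was -0.42 relative to all genes and -0.44 after quantile normalization. The median moved from -0.61 without normoxia replicate 1 to -0.23 without normoxia replicate 2, and 4 to 13 genes were at the looser threshold when arrays were left out in turn. The normoxia replicates differed here too, with 22 of 23 genes higher in replicate 2, by a median of 0.30. In VHL+ cells the median was -0.21 with no gene at the looser threshold. H2BC3 had a log2 fold change of 0.01 in VHL+ cells, and the difference of -0.95 between the cell types had an unadjusted p of 0.000575 and an adjusted p of 0.535.

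Genes of mitosis had the same sign with smaller values. None of 25 passed, and both hypoxia values were below both normoxia values in 21, against 42.7% of all genes. At the looser threshold 3 were lower, against 0.478% of all genes, and none after quantile normalization. With 1 array left out, 2 to 10 were lower at the looser threshold, and 5 without hypoxia replicate 1. The median was -0.21 relative to all genes in VHL- and -0.24 in VHL+ cells. PLK1, a kinase that drives mitotic entry, had log2 signals of 11.47 and 11.42 under normoxia and of 10.73 and 10.52 under hypoxia (log2 fold change -0.82, SE 0.18, adjusted p = 0.132). AURKA, a kinase of the spindle poles, had 9.43 and 9.68 against 8.68 and 8.66 (-0.88, SE 0.19, adjusted p = 0.148). BUB1B, of the spindle checkpoint, had 9.85 and 9.69 against 9.21 and 9.28. Genes of S phase and DNA replication (28) had none at the looser threshold and a median of -0.10. That median was -0.22 without normoxia replicate 1, 0.01 without hypoxia replicate 1 and 0.03 without normoxia replicate 2, and up to 5 genes were lower with 1 array left out.

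**Figure D5:**
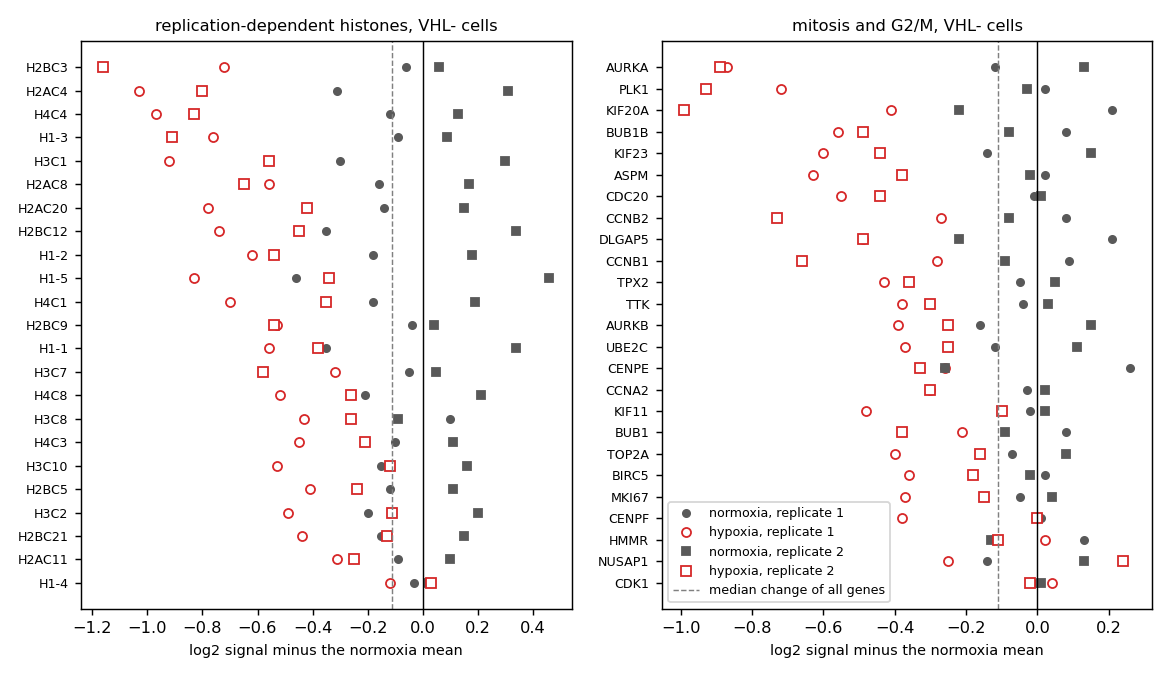
The x axes give the log2 signal minus the gene's mean under normoxia on each of the 4 arrays of VHL- cells, for 23 histone genes (left) and 25 genes of mitosis (right), filled for normoxia and open for hypoxia, with a dashed line at the median change of all genes, -0.11. The hypoxia symbols lie left of the normoxia symbols in 18 histone genes and 21 genes of mitosis. Over all genes, both hypoxia values were below both normoxia values in 42.7%.

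The hypoxia response element core was searched as ACGTG on both strands in the same promoters. It was present in 21.4% of all promoters and in 24.9% of genes. Of 36 HIF target genes with a promoter given, 24 held it. None of the 4 called rises and 5 called falls with a promoter there held it, and only H2AC11 of 21 histone genes did. No HIF target held the ATF4-CEBP element. A missing match says only that these letters are not in this window.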

How the data were processed

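Per the methods, total RNA was amplified and hybridized to Affymetrix Human GeneChip 1.0 ST arrays, and the authors applied RMA (robust multichip average) in Partek to the 8 arrays. What they deposited is a log2 signal for each transcript cluster, from 4.807 to 14.016, used here without further transformation. Symbols came from the platform annotation; a gene is its 1-symbol cluster with the highest mean signal. Contrasts were fitted with limma 3.58.1 in R 4.3.3 (1 mean per group over 8 arrays), with Benjamini-Hochberg adjustment over all 33297 clusters and a threshold of 0.05. An unadjusted p under 0.005, the threshold of the methods, is given as a looser tier. Sequences and promoters are from RefSeq (GRCh38.p14).

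The genes named are up to 12 called rises and 12 called falls, filled in order of p, all with groups that did not overlap. Added to them are up to 4 called members of each of 40 gene lists, or the 2 with the smallest p. Genes the study discusses for hypoxia and the oxygen-sensing genes were also named. Other genes were named from the lists after their values were seen. The members and lists were chosen with earlier results of these data known. Alternatives were quantile normalization, median centring, a fit without dim clusters and one blocked on the replicate number. Fits of 1-symbol clusters only and of the 4 compared arrays alone were also made. Others were trend with robust estimation, a one-way test of the 2 VHL- groups, a 2-fold minimum and each array left out. The script was tested on simulated data. The number of arrays limits the precision.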

Additional observations from a re-analysis of the deposited data

Results flagged for a closer look

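Transcript clusters 7895995 and 7892639, which have no symbol here, were the only ones whose hypoxia effect differed between VHL- and VHL+ cells at an adjusted p under 0.05 in limma. What their probes measure cannot be said from the annotation used here. Cluster 7895995 had log2 signals of 7.94 and 8.04 under normoxia and of 6.44 and 6.39 under hypoxia in VHL- cells (log2 fold change -1.58). In VHL+ cells it had 7.08 and 7.10 under normoxia and 7.89 and 7.33 under hypoxia (log2 fold change 0.52). The difference was -2.10 (SE 0.23, adjusted p = 0.000985). Cluster 7892639 had 11.34 and 11.43 against 9.76 and 9.68 in VHL- cells (-1.67) and 10.40 and 10.20 against 11.14 and 10.46 in VHL+ cells (0.50), a difference of -2.16 (SE 0.25, adjusted p = 0.00117). Both clusters fell in VHL- cells, and neither difference passed after quantile normalization.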

How the results depend on the processing

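In VHL- cells 22 clusters passed at an adjusted p under 0.05 and 312 at an unadjusted p under 0.005. The difference of the hypoxia effects held 2, and VHL+ cells 51. Quantile normalization left 0, 0 and 1 adjusted calls in VHL- cells, the difference and VHL+ cells (1906, 963 and 1815 clusters at an unadjusted p under 0.05), and median centring 0, 0 and 1 (1485, 875 and 2401), with 184 at the looser threshold in VHL- cells. Without dim clusters there were 2, 0 and 8 calls and 116 at the looser threshold, and with 1-symbol clusters 4 and 0 calls and 121. The 4 VHL- arrays alone gave 0 (2311 at p under 0.05), and a 2-fold minimum 13. Trend with robust estimation gave 220, 89 and 182 calls and 648 at the looser threshold. A one-way test of the 2 VHL- groups alone, at the unadjusted threshold of the methods, gave 253, of which 7 were higher and 246 lower. After adjustment it gave 0. Leaving out 1 array gave 2 to 282 calls in VHL- cells, 188 to 798 at the looser threshold, 0 to 203 for the difference and 0 to 354 in VHL+ cells. The fewest calls came without VHL+ hypoxia replicate 1, and without replicate 2 of that group there were 2, 5 and 4. The prior degrees of freedom of the fit, which set how far the spread is shared between clusters, were 14 as reported, 2.82 after quantile normalization, 2.93 after median centring and 4.14 without either VHL+ hypoxia array.

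The labels do not say what a replicate number shares. In VHL- cells the arrays of the same number correlated at 0.9948 and 0.9946, above the 0.9917 and 0.9912 of replicates under the same oxygen. Deviations from the group means correlated at 0.605 between VHL- normoxia and hypoxia, and at 0.0503 to 0.305 between the other pairs of groups. The fit reported above takes no account of the replicate number. Blocking on the replicate number, 220, 98 and 336 clusters passed and 606 were at the looser threshold in VHL- cells; with that block after quantile normalization, 0, 0 and 1 passed (2440, 1288 and 2361 at an unadjusted p under 0.05). All 14 named called genes passed under the block on the deposited scale.

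None of the 97 other named genes changed direction in a value that passed; of 1547 such values 123 passed where the reported value did not. Of 640 list medians 128 moved.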

Other observations

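Cytokine genes and NF-kB targets (26) had 2 members lower at an unadjusted p under 0.005 in VHL- cells and none higher. Over all genes 0.478% were lower and 0.19% higher there. In VHL+ cells 11 were higher and 1 lower, against 1.63% and 0.109% of all genes. The difference between the cell types, with a median of -0.22 over all genes, held 7 members at this threshold and 4 after quantile normalization, all smaller in VHL- cells. CXCL8, the neutrophil chemokine interleukin-8, had log2 signals of 10.92 and 11.16 under normoxia and of 10.55 and 11.33 under hypoxia in VHL- cells. In VHL+ cells it had 7.19 and 8.17 under normoxia and 9.26 and 9.79 under hypoxia. The difference of both fold changes was -1.94 (SE 0.37, adjusted p = 0.17), and CXCL8 stayed above its VHL+ levels on every VHL- array. CXCL1, a related chemokine, had 11.11 and 11.21 against 10.06 and 10.75 in VHL- cells and 7.62 and 8.05 against 8.59 and 8.45 in VHL+ cells, a difference of -1.44 (SE 0.27, adjusted p = 0.136). IL1R1, the receptor of interleukin-1, passed in neither cell type, with log2 fold changes of -0.57 (adjusted p = 0.198) in VHL- and -0.49 (adjusted p = 0.292) in VHL+ cells.

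Cholesterol synthesis genes (18) had a median of 0.19 above all genes in VHL- and 0.24 in VHL+ cells. In VHL- cells the median was -0.05 without hypoxia replicate 1, 0.06 without normoxia replicate 2 and 0.33 without hypoxia replicate 2. MSMO1, a sterol methyl oxidase that uses oxygen, had 9.81 and 9.47 under normoxia and 10.44 and 10.05 under hypoxia in VHL- cells (log2 fold change 0.60, SE 0.20, adjusted p = 0.619). In VHL+ cells its log2 fold change was 0.79 (SE 0.20, adjusted p = 0.219). Neither passed after adjustment.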
